A study of Mus musculus with 12 samples.

Results

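The genes described here are Synpo2 and 9 genes of the smooth muscle contractile program, Acta2, Myh11, Tagln, Cnn1, Des, Lmod1, Myocd, Actg2 and Smtn, in inguinal white adipose tissue (iWAT) of mice injected with an AAV for GFP or for Notum. They were found by gene symbol in the table of raw counts, where each of the 10 symbols matched a row among 54134 genes. Synpo2 was chosen by its measured difference between AAV-Notum and AAV-GFP, and the other 9 because they mark contractile smooth muscle. A total of 9 of the 10 genes passed the filter on low counts, which left 15585 genes for testing, and Myocd, with 1 to 7 reads per mouse, did not.

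All 12 mice were male C57BL/6J animals injected at 8 weeks of age with AAV8 that carried GFP (6 mice) or mouse Notum (6 mice). The liver-specific human thyroxine binding globulin promoter drove the transgene in both groups, so that iWAT itself was not the tissue targeted for expression. Notum is a secreted enzyme that inactivates Wnt proteins. Both groups then ate chow for 4 weeks and were fasted for 4 h before tissue collection, no uninjected group was included, and each mouse gave 1 library, called here by its group and number (AAV-GFP-2011 to AAV-Notum-2042).

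Smooth muscle cells and the related pericytes, together called mural cells, wrap the blood vessels of adipose tissue and set vascular tone. Their contractile genes are switched on by serum response factor, which binds CArG boxes in DNA together with its coactivator myocardin, the product of Myocd. Synpo2 encodes synaptopodin-2 (myopodin), an actin-binding protein of the Z-disc and of stress fibers that is abundant in smooth, skeletal and heart muscle. Des likewise serves more than 1 muscle type, since desmin is the intermediate filament of smooth and skeletal muscle alike. The comparisons below give the level of each gene in both groups and ask whether Synpo2 followed the mural cell genes from mouse to mouse.

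Total counts ran from 14711113 to 21618860 reads per mouse. RNA integrity numbers were 5.7 to 7.6 in AAV-GFP mice and 6.9 to 7.4 in AAV-Notum mice, and the RNA of AAV-GFP-2012 was isolated on a later date than that of the other 11 mice. Among the controls, AAV-GFP-2011 and AAV-GFP-2014 stood apart in lymphoid markers, with mean log2 CPM (counts scaled to the normalized library size) of 0.01 and -0.52, while the other 10 mice were between 3.81 and 7.24. AAV-Notum-2042 had the highest level of skeletal muscle markers, a mean log2 CPM of 8.03, in a group that otherwise ran from -0.05 to 5.09. Pck1, Plin1, Cidec and Lep, 4 of the 9 adipocyte markers, had group means from 193 to 6130 CPM. Other markers of that list were higher, up to a group mean of 18400 CPM. Because whole tissue was sequenced, fewer cells of a type and less RNA per cell cannot be told apart in any of the values below.

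Promoter sequences from RefSeq (GRCm38.p6, from 250 bases before to 50 bases after the RefSeq start) were matched for 6 of the 10 genes, Synpo2, Acta2, Cnn1, Des, Lmod1 and Smtn. They were searched on both strands for the CArG box, for a CArG-like site that differs from it in 1 letter of the core, and for the MEF2 box, which is bound by MEF2 factors in muscle genes. The matches did not overlap each other. None of the 6 held an exact CArG box, which occurred in 1.63% of 32841 mouse promoters of this length. Acta2 held a pair of CArG-like sites (8.49% of all promoters held at least 1) and Synpo2 a MEF2 box (3.19%). The sequences of these genes are shown because they were the members with a match, with the matches in capitals, on the minus strand of chr3:123236100-123236399 for Synpo2 and of chr19:34255324-34255623 for Acta2.
Synpo2: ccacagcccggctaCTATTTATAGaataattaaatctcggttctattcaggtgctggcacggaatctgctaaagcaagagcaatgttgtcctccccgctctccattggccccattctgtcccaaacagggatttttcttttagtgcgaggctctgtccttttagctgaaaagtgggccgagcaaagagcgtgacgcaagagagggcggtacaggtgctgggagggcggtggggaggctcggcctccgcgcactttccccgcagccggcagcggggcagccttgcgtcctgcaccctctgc
Acta2: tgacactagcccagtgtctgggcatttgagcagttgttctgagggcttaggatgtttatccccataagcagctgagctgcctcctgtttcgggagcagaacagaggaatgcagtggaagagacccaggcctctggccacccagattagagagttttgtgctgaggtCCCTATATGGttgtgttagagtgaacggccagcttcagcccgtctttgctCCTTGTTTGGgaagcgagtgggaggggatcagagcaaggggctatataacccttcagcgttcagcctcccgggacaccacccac
Counted from the RefSeq start, the MEF2 box of Synpo2 began at position -236 and the CArG-like sites of Acta2 at -84 and -34. The RefSeq start of Synpo2 is also the outer end of its GENCODE gene. That of Acta2 lies 217 bases inside the GENCODE gene, so both of its sites fall within the gene as placed by the GENCODE coordinates given below, and that of Smtn lies 1320 bases inside. A match of letters is a description of the sequence, and binding was not measured here.

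Synpo2 (ENSMUSG00000050315, GRCm38 chromosome 3, 123076519 to 123236149, minus strand) had the highest mean read count of the 10 genes, with 1061 to 3887 reads per mouse. AAV-GFP mice had a lowest level of 125 CPM, a median of 171 CPM and a highest level of 195 CPM, and AAV-Notum mice had 69.3, 86.4 and 107 CPM. The highest AAV-Notum level was thus under the lowest AAV-GFP level. The means were 162 ± 28.1 CPM (SD, n = 6) in AAV-GFP and 85.5 ± 14.5 CPM (SD, n = 6) in AAV-Notum, a level 0.529 times that of the control and a log2 fold change of -0.92 (standard error 0.14). This difference chose the gene and is given as a description. The adjusted p of Synpo2 was 0.0495 with edgeR's quasi-likelihood test over 15585 genes, just inside the threshold of 0.05, and 1.54e-05 with DESeq2. The call was lost in 14 of 22 alternatives, 9 of them among the 12 fits that left out 1 mouse (adjusted p up to 0.143), while the log2 fold change stayed below 0. Leaving out AAV-GFP-2012, whose RNA was isolated later, gave -0.98 with an adjusted p of 0.0481.

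**Figure D1:**
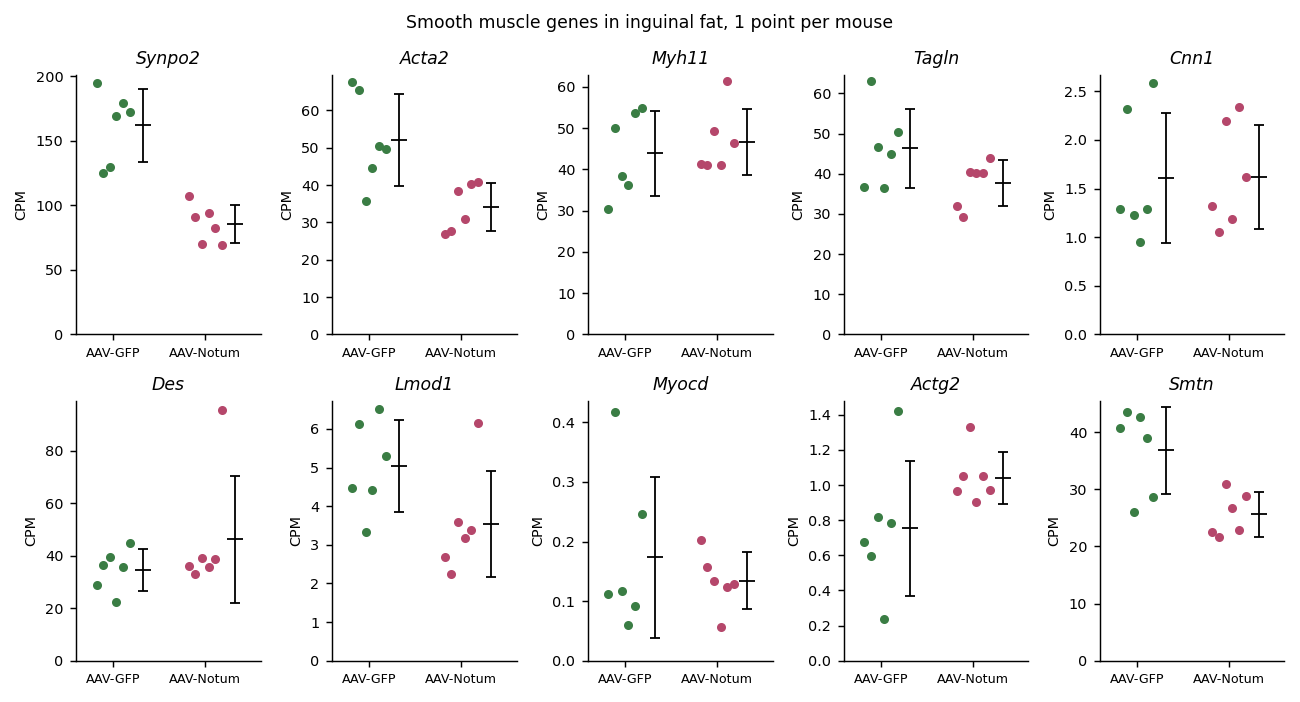
Level of each of the 10 genes in CPM (vertical axes, each from 0), with 1 point per mouse and the mean ± SD of 6 mice beside each group. For Synpo2 all 6 AAV-Notum points lie below the 6 AAV-GFP points, the other genes overlap between groups, and a single AAV-Notum mouse stands at 95.4 CPM for Des.

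Levels between genes were compared per kb of exon, in CPM per kb. In AAV-GFP mice Acta2 (23.8 ± 5.59, SD, n = 6) and Tagln (23.3 ± 4.95, SD, n = 6) were highest and did not differ beyond their spread. The place of Tagln depends on the table, since the reads recovered from the normalized table put it at 3.30 ± 0.326 CPM per kb, under Myh11 (5.93 ± 1.38 there). Synpo2 followed at 12.4 ± 2.15 CPM per kb. Next came Des at 9.24 ± 2.13 and Smtn at 8.40 ± 1.72 CPM per kb, whose ranges overlapped each other and that of Synpo2. Myh11, the smooth muscle myosin heavy chain, was at 5.78 ± 1.36 CPM per kb. Lmod1 (1.27 ± 0.30 CPM per kb), Cnn1 (0.589 ± 0.245), Actg2 (0.485 ± 0.247) and Myocd (0.0271 ± 0.0210) were low, and the ranges of Cnn1 and Actg2 overlapped. In AAV-Notum mice Synpo2, at 6.54 ± 1.11 CPM per kb, lay within the ranges of Myh11 (5.39 to 8.08) and Smtn (4.94 to 7.08).

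Of the 9 tested genes, 5 had a lower and 4 a higher fitted level in AAV-Notum, around a median log2 fold change of -0.30 beside 0.01 over all 15585 genes. Synpo2 was the only one of the 9 with an adjusted p under 0.05, in a comparison where 0.0513% of all genes were called lower, and this is the gene that the comparison itself chose. Synpo2 was also the gene whose groups did not overlap, which the choice of the gene favours and from which nothing is read (0.693% of all genes had their highest AAV-Notum level under their lowest AAV-GFP level), and 0 of the other 8 did so. Without Synpo2 the median of the other 8 was -0.15. At an unadjusted p under 0.05, 2 of these 8 were lower (Acta2 and Smtn; background 9.54% of all genes) and 0 were higher (background 4.64%). With DESeq2, the tool the study used, the same pair was called lower, beside 2.18% of the genes with an adjusted p there.

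**Figure D2:**
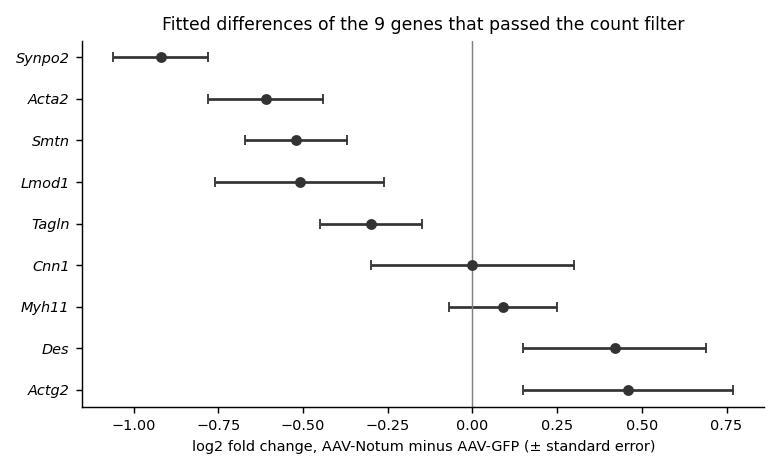
Fitted log2 fold change of AAV-Notum minus AAV-GFP (horizontal axis) with its standard error for the 9 genes tested, from edgeR over 12 mice. Synpo2 is farthest below 0 at -0.92, followed by Acta2 at -0.61 and Smtn at -0.52, while Des and Actg2 lie above 0.

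Acta2 (ENSMUSG00000035783, chromosome 19, 34241090 to 34255590) encodes smooth muscle alpha-actin, the thin filament of these cells. Its levels were 35.8 to 67.6 CPM in AAV-GFP (median 50.1) and 27.0 to 40.9 CPM in AAV-Notum (median 34.6). The control mean exceeded all 6 AAV-Notum levels, and 3 of them were also under the lowest control level. The means of 52.2 ± 12.3 and 34.2 ± 6.39 CPM (SD, n = 6 each) gave a fitted log2 difference of -0.61 ± 0.17 (standard error), with an adjusted p of 0.164 from edgeR's quasi-likelihood test. DESeq2 gave an adjusted p of 0.0307 for the same comparison, so that whether Acta2 was called differed between the tools.

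Smtn (ENSMUSG00000020439, chromosome 11, 3517523 to 3540612) encodes smoothelin, an actin-binding protein of contractile smooth muscle. It ran from 26.0 to 43.6 CPM in AAV-GFP (median 39.9) and from 21.6 to 31.0 CPM in AAV-Notum (median 24.8). The control mice AAV-GFP-2013, at 26.0 CPM, and AAV-GFP-2022, at 28.6 CPM, lay within the AAV-Notum range. Its log2 fold change came to -0.52 ± 0.15 (standard error), with an adjusted p of 0.166 from edgeR and 0.0416 from DESeq2, and to -0.33 with the lymphoid score as a covariate (adjusted p = 0.513 with edgeR). An antisense transcript, Gm11946, covers 16.3% of the Smtn exon bases, and 9.5% of the 50-base subsequences of Smtn occur there as well, so reads of the pair could be split or joined by the counting.

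Lmod1 (ENSMUSG00000048096, chromosome 1, 135324807 to 135368065) encodes leiomodin-1, which starts actin filaments in smooth muscle. Its AAV-GFP levels were 3.34 to 6.51 CPM. In AAV-Notum 5 mice were at 2.25 to 3.58 CPM and AAV-Notum-2042 was at 6.15 CPM. The fitted log2 difference of -0.51 ± 0.25 (standard error; adjusted p = 0.365 with edgeR) became -0.74 without AAV-Notum-2042, with an adjusted p of 0.133.

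Tagln (ENSMUSG00000032085, chromosome 9, 45929619 to 45936058) encodes transgelin (SM22), an early marker of smooth muscle. It ran from 36.5 to 63.0 CPM in AAV-GFP (median 45.7) and from 29.2 to 43.9 CPM in AAV-Notum (median 40.3), or -0.30 ± 0.15 (standard error) as a log2 fold change, with an adjusted p of 0.368 from edgeR, and -0.19 without AAV-GFP-2012. The groups overlapped over most of the AAV-Notum range. Tagln is the least certain count of the 10. The antisense gene Gm48529 covers 62.4% of its exon bases, and 58.3% of its 50-base subsequences are shared with Gm48529 or Pcsk7. The raw table gave Tagln 557 to 1058 reads per mouse, and the reads recovered from the normalized table of the authors were 81 to 155 per mouse, with a log2 fold change of -0.13. How either table treated reads of overlapping genes is not given in the sources used here.

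Myh11 (ENSMUSG00000018830, chromosome 16, 14194535 to 14291372) encodes the myosin heavy chain that is the most specific marker of mature smooth muscle. AAV-GFP mice had 30.3 to 54.9 CPM (median 44.2) and AAV-Notum mice had 41.0 to 61.4 CPM (median 43.8). The group means of 43.9 ± 10.3 and 46.7 ± 7.98 CPM (SD, n = 6 each) were closer to each other than the mice within either group (log2 fold change 0.09, standard error 0.16, adjusted p = 0.770 with edgeR). Its sign turned under some alternatives, with -0.05 when the RNA integrity number was a covariate.

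Cnn1 (ENSMUSG00000001349, chromosome 9, 22099216 to 22109630) encodes calponin-1, a regulator of actomyosin. It was covered by only 16 to 42 reads per mouse, and both groups averaged near 1.6 CPM, with 1.61 ± 0.669 CPM in AAV-GFP and 1.62 ± 0.537 CPM in AAV-Notum (SD, n = 6 each). The standard error of its log2 fold change was 0.30, so that only large differences could have been seen. Actg2 (ENSMUSG00000059430, chromosome 6, 83512905 to 83536265), the gamma-actin of visceral smooth muscle, had 4 to 23 reads per mouse. It ran from 0.238 to 1.42 CPM in AAV-GFP and from 0.905 to 1.33 CPM in AAV-Notum (log2 fold change 0.46, standard error 0.31, adjusted p = 0.469 with edgeR). This value was 0.10 with the lymphoid score as a covariate, 0.21 without the lymphoid-poor mice, 0.28 without AAV-GFP-2014 and 0.73 without AAV-GFP-2022. Myocd (ENSMUSG00000020542, chromosome 11, 65176561 to 65269989) was not tested, and its AAV-GFP mice had 1 to 7 reads and its AAV-Notum mice 1 to 4.

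Des (ENSMUSG00000026208, chromosome 1, 75360329 to 75368579) had 22.5 to 45 CPM in AAV-GFP (median 36.1). In AAV-Notum 5 mice lay between 33.0 and 39.2 CPM and AAV-Notum-2042 was at 95.4 CPM. The fitted log2 difference of 0.42 ± 0.27 (standard error; adjusted p = 0.461 with edgeR) became 0.07 without AAV-Notum-2042 and 0.23 without the lymphoid-poor mice. That mouse also had the highest skeletal muscle markers, with 614 CPM of Acta1 (skeletal alpha-actin) against 1.54 to 144 CPM in the other 11 mice, and all 16 skeletal muscle markers tested were at their highest there. Over the whole list, 16 of 18 markers were tested, all 16 had a higher fitted level in AAV-Notum (median log2 fold change 1.39, 0 with p under 0.05; Ttn 1.69, Neb 1.52 and Myh1 2.10, adjusted p from 0.458 to 0.499 with edgeR), and the mean of their log2 CPM ran from 0.41 to 5.80 in AAV-GFP and from -0.05 to 8.03 in AAV-Notum. The mean score was 3.09 in AAV-GFP and 2.74 in AAV-Notum, so that the score and the median fold change differed in sign. Within groups, the r of Des with that score was 0.53 (exact permutation p = 0.114; adjusted p = 0.474 over 12 marker lists), and it was 0.23 without AAV-Notum-2042 and AAV-GFP-2022, the mice farthest from the Des median after removal of group means. Among the 6 AAV-Notum mice alone it was 0.87 (exact permutation p = 0.00278, adjusted p = 0.0111 over 12 lists), and 0.88 without the pair farthest from the median of that group. In those mice 8 of the 12 lists had an adjusted p under 0.05 with Des, among them the lymphoid list at -0.94 (exact permutation p = 0.00556, adjusted p = 0.0133). Among the 6 AAV-GFP mice the skeletal muscle list gave -0.28 and the lymphoid list 0.92 (exact permutation p = 0.00556, adjusted p = 0.0167), and 4 of the 12 lists passed. The difference between the groups was not tested, and over all 12 mice with group means removed 0 of the 12 lists passed.

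**Figure D3:**
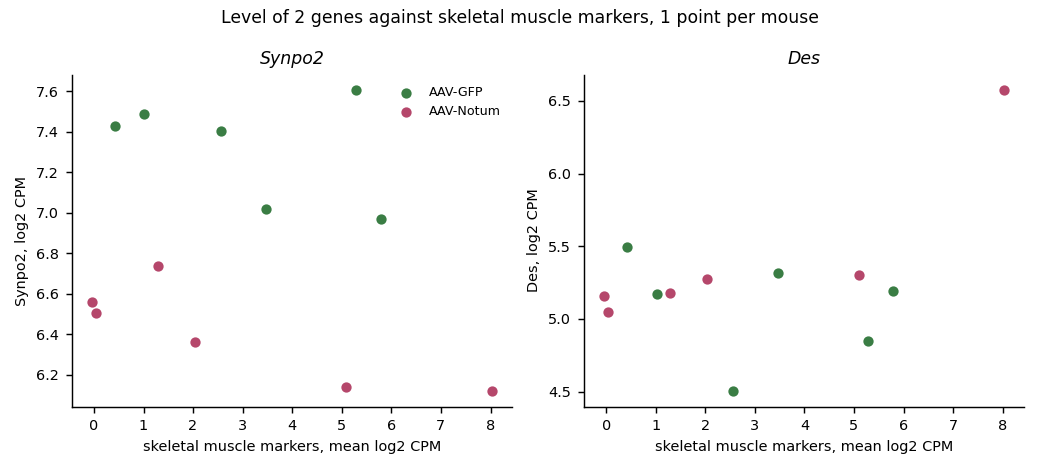
Log2 CPM of Synpo2 and of Des (vertical axes) against the mean log2 CPM of skeletal muscle markers (horizontal axis), 1 point per mouse. AAV-Notum-2042, at a score of 8.03, is the highest mouse for Des and the lowest for Synpo2, with 69.3 CPM.

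No rise of Synpo2 with the mural cell genes was seen from mouse to mouse, though 12 mice are too few to show that a weak rise is absent. Since the groups do not overlap in Synpo2, no correlation was pooled over the raw levels, and r was computed on log2 CPM after removing each group's mean, over 12 mice. All 9 r were below 0, with a median of -0.32, and ran from -0.70 for Tagln to -0.08 for Actg2. For Tagln the exact permutation p within groups was 0.0200, and after adjustment over the 9 relations it was 0.180, so 0 of the 9 passed the threshold. Spearman's rho of Tagln was -0.63 (exact permutation p = 0.0482, adjusted p = 0.432). Without AAV-GFP-2012 and AAV-GFP-2013, the mice farthest from the Synpo2 median, its r was -0.59. On the normalized table of the authors, which holds fewer Tagln reads, it was -0.27.

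For Acta2 the r was -0.22 (rho -0.23; exact permutation p = 0.521 and 0.517, adjusted p = 0.670 and 0.665), and without the same pair of mice it was -0.52. For Des it was -0.51 (rho -0.54; exact permutation p = 0.104 and 0.0961, adjusted p = 0.469 and 0.432), and -0.54 without that pair. For Cnn1 it was -0.43 (rho -0.26), for Lmod1 -0.34 (rho -0.31), for Myh11 -0.32 (rho -0.34) and for Smtn -0.13 (rho -0.43), with exact permutation p from 0.188 to 0.698 for r and from 0.202 to 0.462 for rho. Without that pair of mice these r were -0.45, -0.68, -0.40 and -0.46. For Myocd, at 1 to 7 reads, r was -0.30 and turned to 0.09, and for Actg2 it stayed at -0.08. With any 1 mouse left out, the r ran from -0.60 (AAV-GFP-2013) to -0.03 (AAV-GFP-2012) for Acta2 and from -0.64 (AAV-GFP-2013) to -0.09 (AAV-Notum-2042) for Lmod1. It ran from -0.46 (AAV-GFP-2021) to -0.13 (AAV-GFP-2011) for Myh11 and from -0.76 to -0.59 for Tagln.

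**Figure D4:**
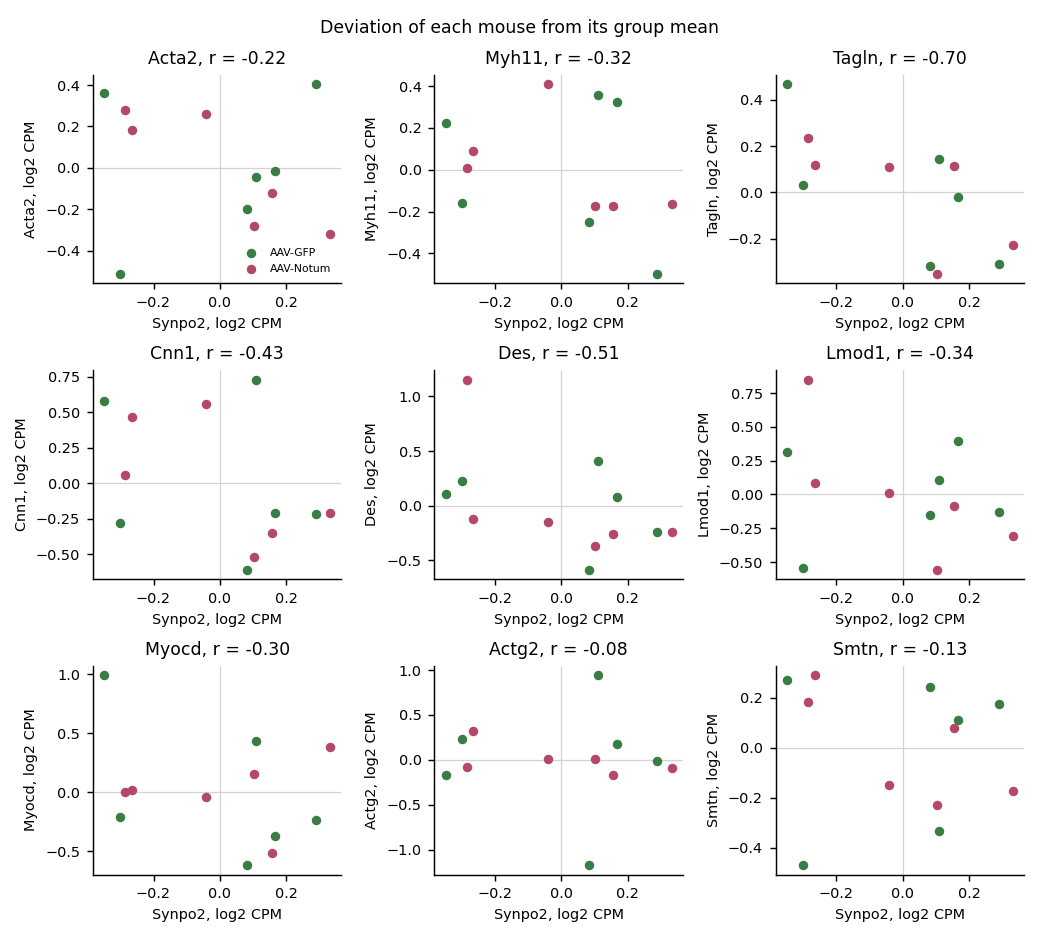
Deviation of each mouse from its group mean in log2 CPM, for Synpo2 (horizontal axes) against each of the other 9 genes (vertical axes), with r over 12 mice above each panel. In none of the panels do the points rise from left to right as a whole, and the clearest downward slope is that of Tagln at -0.70.

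The groups differed in how this looked, though the difference between them was not tested. Within the 6 AAV-Notum mice, 8 of the 9 r were below 0, with a median of -0.64 and the lowest at -0.87 for Acta2 (rho -0.89; exact permutation p = 0.0375 and 0.0333, adjusted p = 0.230 over 9 relations for r). Without the AAV-Notum mice farthest from the Synpo2 median of that group it was -0.74. Within the 6 AAV-GFP mice, 5 were below 0 and 4 above, with a median of -0.22, and Acta2 gave 0.27. Without AAV-GFP-2012 and AAV-GFP-2013, the farthest from the Synpo2 median of that group, the Acta2 r of the other 4 mice was 0.98, which was not tested. Both mice were below their group mean in Synpo2. Acta2 deviated from its group mean by 0.36 log2 CPM in AAV-GFP-2012 and by -0.512 in AAV-GFP-2013, so that they moved r in opposite ways. AAV-GFP-2012 had the lowest Synpo2 of its group, 125 CPM, beside the highest Tagln of all 12 mice, 63.0 CPM.

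Of the 36 pairs among the other 9 genes, 32 (88.9%) had an r above 0 within groups, with a median of 0.42, from -0.48 for Actg2 with Smtn to 0.75 for Myh11 with Cnn1 (exact permutation p = 0.0105, adjusted p = 0.171 over 36 pairs). Tagln with Cnn1 gave 0.74, Des with Lmod1 0.69, Acta2 with Lmod1 0.68, and Acta2 with Smtn 0.65. No pair reached an adjusted p under 0.05, and 9 had an unadjusted p under 0.05. Without Myocd, 25 of 28 pairs were above 0 and the median was 0.44. Over all pairs of the 15585 genes tested, 50.5% had an r above 0 and the median was 0.01. The member pairs share genes and mice, and the gap between them and the 9 values of Synpo2 was not tested.

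**Figure D5:**
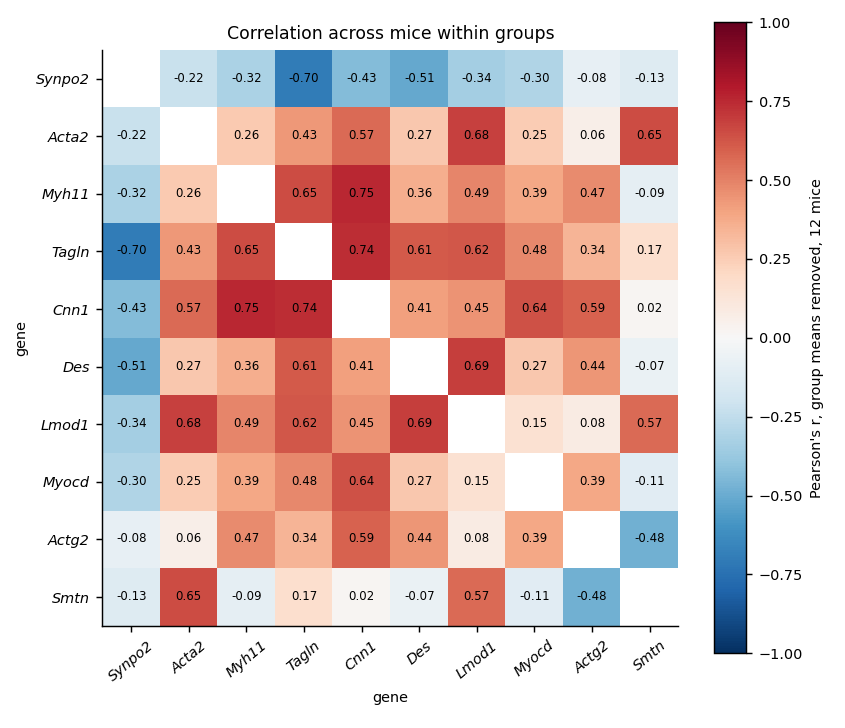
Pearson's r over 12 mice, after removal of group means, for each pair of the 10 genes. The row of Synpo2 is below 0 throughout, from -0.70 to -0.08, while 32 of the 36 other pairs are above 0.

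Across all 15584 other genes tested, the r of Synpo2 had a median of -0.04 and quartiles of -0.26 and 0.15. By this measure 98.9% of genes were more like Synpo2 than Tagln was, 93.3% more than Des and 88.4% more than Cnn1. The share was 81.8% for Lmod1, 80.8% for Myh11, 70.0% for Acta2, 60.8% for Smtn and 54.3% for Actg2. The genes most like Synpo2 over the 12 mice were Gabrr2 (r = 0.89), Mapre2, Nme4 and Pgf (0.88 each), Gltp (0.87), Kpnb1 (0.86), Rrp1 (0.85) and Slc41a3 (0.84). The least like were Dcaf11 (-0.95), Slc25a22, Rbm7 and Rcl1 (-0.89 each), and Ugdh, Acat3, Gm17024 and Cyp2e1 (-0.87 each). They are the extremes of a ranking over all genes and carry no test, and none of the 10 smooth muscle genes is among the 16.

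Scores of marker lists (the mean log2 CPM of each list) were compared with Synpo2 in the same way, for 12 lists. Skeletal muscle markers gave the lowest r, -0.63 (rho -0.60; exact permutation p = 0.0354 and 0.0619, adjusted p = 0.425 and 0.466), and -0.62 without AAV-GFP-2012 and AAV-GFP-2013. The list of Synpo2 partners gave -0.52, the progenitor list -0.51, the endothelial list -0.47, the wider contractile apparatus -0.38, the adipocyte list -0.28, the regulators -0.26, the epithelial list -0.20, the pericyte list -0.19, the lymph node stroma list -0.18 and the lymphoid list -0.14 (adjusted p from 0.442 to 0.732, exact permutation). Non-muscle actin and myosin was the list above 0, with r at 0.12 and rho at 0.40 (adjusted p = 0.732 and 0.543, exact permutation). The rho of the regulators (0.11), the epithelial (0.11), lymph node stroma (0.14) and lymphoid (0.34) lists was above 0 too. Within the 6 AAV-Notum mice the adipocyte list (-0.90), the endothelial list (-0.86), the skeletal muscle list (-0.84) and the contractile apparatus (-0.81) stood beside Acta2 (-0.87), each with an adjusted exact permutation p from 0.117 to 0.230. The progenitor (-0.77), pericyte (-0.76) and Synpo2 partner (-0.75) lists followed. In the same mice the lymphoid list (0.76), non-muscle actin and myosin (0.72), the regulators (0.61), the epithelial list (0.59) and the lymph node stroma list (0.55) were above 0 (adjusted exact permutation p from 0.131 to 0.287). With the skeletal muscle score regressed out, 3 of the 9 genes turned above 0 with Synpo2, to 0.28 for Acta2, 0.30 for Smtn and 0.01 for Lmod1, while Tagln stayed at -0.64 and Myh11 moved to -0.51. The part of skeletal muscle RNA in these relations was not tested further.

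The wider contractile apparatus was read from a list of 24 further genes, of which 23 were tested. Here 17 were lower and 6 higher in AAV-Notum, with a median log2 fold change of -0.27; by the unadjusted p, 10 were lower and 2 higher at 0.05 (9.54% and 4.64% of all genes), and 0 had an adjusted p under that threshold with edgeR. The smallest p belonged to Tgfb1i1 (Hic-5, a focal adhesion protein), at 23.3 ± 5.69 CPM in AAV-GFP and 15.1 ± 1.95 CPM in AAV-Notum (SD, n = 6 each; log2 fold change -0.62, adjusted p = 0.146 with edgeR). Lpp, another adhesion protein of smooth muscle, was at 124 ± 10.2 and 101 ± 9.40 CPM (-0.31, adjusted p = 0.151 with edgeR). Cald1, caldesmon, was at 165 ± 48.9 and 105 ± 17.6 CPM (-0.66, adjusted p = 0.177 with edgeR).

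Of the regulators of smooth muscle genes, 10 were tested, with 7 lower and 3 higher, a median of -0.19, and 2 lower and 0 higher at an unadjusted p under 0.05 (9.54% and 4.64% of all genes). Klf4, which represses contractile genes, was at 54.2 ± 10.7 CPM in AAV-GFP and 37.1 ± 5.20 CPM in AAV-Notum (log2 fold change -0.55, adjusted p = 0.136 with edgeR). Pdgfb, a growth factor that recruits mural cells, gave -0.37 (adjusted p = 0.235) and Foxo4 -0.24 (adjusted p = 0.387 with edgeR). Srf itself, the factor that binds the CArG box, was at 44.7 ± 7.17 and 52.4 ± 7.72 CPM (0.23, adjusted p = 0.407 with edgeR).

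The list of the synaptopodin family and of Synpo2 partners held 12 tested genes, 8 lower and 4 higher, with a median of -0.17, and 4 lower and 1 higher at an unadjusted p under 0.05 (9.54% and 4.64% of all genes). Hspa8, the constitutive heat shock chaperone, gave -0.35 (adjusted p = 0.179), Actn4, a non-muscle alpha-actinin, -0.35 (adjusted p = 0.290) and Synpo, the paralog of Synpo2, -0.41 (adjusted p = 0.314 with edgeR). Synpo was at 22.9 ± 6.59 CPM in AAV-GFP and 17.2 ± 2.20 CPM in AAV-Notum (SD, n = 6 each). The muscle paralog Synpo2l was near 1 CPM, at 0.856 ± 0.597 and 1.30 ± 1.85 CPM.

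In lists of neighboring cell types 0 genes passed the adjusted threshold of edgeR. Of 13 pericyte markers, 10 were lower and 3 higher with a median of -0.33, and 4 were lower at an unadjusted p under 0.05, as were 4 of 11 endothelial and 2 of 9 progenitor markers (9.54% of all genes). Notch3, a receptor that maintains mural cells, was at 54.5 ± 5.58 and 43.4 ± 2.78 CPM (-0.33, adjusted p = 0.139), Heyl, a Notch target, gave -0.57 (adjusted p = 0.230) and Ndufa4l2 -0.64 (adjusted p = 0.310 with edgeR). In the paper's own DESeq2 results Notch3 was among the down-regulated genes, so that its call differed between the tools. Of 11 endothelial markers, 10 were lower with a median of -0.37, and Esam gave -0.51 (adjusted p = 0.217), Tie1 -0.42 (0.256) and Flt1 -0.47 (0.30). Of 9 adipocyte markers 7 were lower (median -0.27), with Pck1 at -0.48, Lep at -1.14 and Plin1 at -0.38 (adjusted p from 0.367 to 0.438 with edgeR). Of 9 progenitor markers 7 were lower (median -0.19), with Pdgfra at -0.49, Dcn at -0.39 and Col15a1 at -0.61 (adjusted p from 0.167 to 0.357 with edgeR). Of 11 genes of non-muscle actin and myosin, 4 were lower and 7 higher (median 0.13), with Myl12a at -0.28, Actg1 at 0.57 and Tpm4 at -0.22 (adjusted p from 0.263 to 0.399 with edgeR). The 3 epithelial markers tested (Trp63 -0.44, Epcam 0.74, Cdh1 -0.06) had a median of -0.06, and the 4 tested of lymph node stroma were higher, among them Glycam1 at 1.31, Madcam1 at 0.71 and Ccl19 at 0.26 (adjusted p from 0.512 to 0.964 with edgeR over both lists). All 15 lymphoid markers had higher fitted levels in AAV-Notum (median 1.02, 0 at an unadjusted p under 0.05), with Cd2 at 1.03 and Cd3d at 1.10 (adjusted p = 0.509 and 0.528 with edgeR), and their mean log2 CPM ran from -0.52 to 6.79 in AAV-GFP and from 5.16 to 7.24 in AAV-Notum. With the lymphoid score as a covariate, the log2 fold change of Synpo2 was -0.88 (adjusted p = 0.117 with edgeR), and with the lymphoid-poor pair left out it was -0.83 (adjusted p = 0.254).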

How the data were processed

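iWAT of 12 mice (6 AAV-GFP, 6 AAV-Notum, groups from the sample labels) was sequenced as single-end TruSeq libraries, mapped to mm10 with STAR 2.3.1 and tested with DESeq2 by the authors. The counting program, annotation and strand setting are not given in the sources used here. The deposited raw table holds counts of reads per gene. The deposited normalized table holds log2 values of size-factor-scaled reads plus 1, and undoing this gave whole reads (within 0.01) for 100% of values.

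Counts were tested in R 4.3.3 with edgeR 4.0.16 (filterByExpr, minimum count 10 and total 15; TMM; quasi-likelihood test, two-sided, Benjamini-Hochberg over 15585 genes, threshold 0.05). CPM are scaled to the TMM-normalized library, log2 CPM carry a prior count of 2, and standard errors were taken as the absolute log2 fold change over the root of F. Exact permutation tests of r were two-sided and permuted mice within groups. Each mouse was 1 sample, so the spread is between mice. The members and lists were chosen with earlier results of these data known. Named genes are the 10 members, of each list those with an adjusted p under 0.05 and the 3 of smallest p, and the 8 genes of highest and of lowest r with Synpo2 (1 lymphoid marker is not reported here); Srf, Synpo2l, Acta1, Gm11946, Gm48529 and Pcsk7 were named after their values were seen, as was Cidec. On simulated counts of 15585 genes with 200 changed by a log2 fold change of 1, the fit called 48.5% of them, with 3% false calls. Alternatives were DESeq2 1.42.0 (independent filtering level 0.1), limma 3.58.1 on the normalized table, RLE size factors, other count filters, covariates, and each mouse left out. Chosen after seeing the data were a fit on reads recovered from the normalized values, and the omission of AAV-GFP-2011 with AAV-GFP-2014 (the lymphoid-poor mice). Gene positions came from GENCODE vM21 for GRCm38. Plots used matplotlib 3.10.9 and Python 3.11.15.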

Additional observations from a re-analysis of the deposited data

Results flagged for a closer look

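Levels of the 10 genes and of 12 marker scores were screened for a mouse far from the other 5 of its group, over 44 groups of 6 mice, and 4 were found where chance gives about 2.2. The groups share the same mice and are not independent, so that nothing is read from this comparison. Des in AAV-Notum was 95.4 CPM in AAV-Notum-2042 beside 33.0 to 39.2 CPM in the other mice of the group. Lmod1 was 6.15 CPM in the same mouse beside 2.25 to 3.58 CPM. The score of lymph node stroma markers was lowest in that mouse too, at a mean log2 CPM of 2.16 beside 3.09 to 3.42. Actg2 was 1.33 CPM in AAV-Notum-2033 beside 0.905 to 1.05 CPM, a difference of few reads (15 to 20 per mouse in the group).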

How the results depend on the processing

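The log2 fold change of Synpo2 stayed below 0 in each of the 22 alternatives run, from -0.99 to -0.83, and those of Acta2 (-0.70 to -0.46), Smtn (-0.61 to -0.33), Lmod1 (-0.74 to -0.41) and Tagln (-0.44 to -0.13) did so too. Actg2 ran from 0.10 to 0.73 and Des from 0.07 to 0.51. The adjusted p of Synpo2 rose above 0.05 with the filter of at least 1 count (-0.91), the RNA integrity number (-0.89) or the lymphoid score (-0.88) as covariate, the authors' normalized table (-0.91), and without the lymphoid-poor mice (-0.83). It did so in 9 of the 12 fits that left out 1 mouse, where the log2 fold change ran from -0.99 to -0.86 over those 9 and the adjusted p up to 0.143. The number of members called lower was 3 with DESeq2, 0 under those 5 settings and 0 to 1 with 1 mouse left out. The number of all genes called lower, 8, became 357 with DESeq2, 13 with RLE size factors, 5 with at least 1 count, 14 with at least 10 counts in every mouse, 4 with the lymphoid score, 63 with the skeletal muscle score, 4 with the authors' table, 1 without the lymphoid-poor mice, and 1 to 146 with 1 mouse left out. The 0 genes called higher (723 at an unadjusted p under 0.05) became 79 with DESeq2, 1 with RLE size factors, with at least 10 counts or with the recovered reads, 4 with the skeletal muscle score, and 0 to 12 with 1 mouse left out. Myh11 (0.09) turned to -0.05 with the RNA integrity number, -0.08 with the lymphoid score and -0.08 without the lymphoid-poor mice. Cnn1 (0.00) turned to -0.15, -0.17 and -0.20 there and to -0.02 with the recovered reads. With 1 mouse left out, Myh11 ran from -0.0043 to 0.16 and Cnn1 from -0.13 to 0.19. The median r of Synpo2 with the other genes ran from -0.52 (without AAV-GFP-2013) to -0.23. Single r turned with the skeletal muscle score regressed out (Acta2 0.28, Smtn 0.30, Lmod1 0.01), and that of Actg2 turned to 0.04 with the lymphoid score regressed out and to 0.18 without the lymphoid-poor mice. With 1 mouse left out, the r of Synpo2 with Des ran from -0.59 to -0.36, with Cnn1 from -0.60 to -0.29, with the skeletal muscle score from -0.84 to -0.55, with the endothelial score from -0.72 to -0.28 and with the adipocyte score from -0.52 to -0.11, and that of Myocd ran from -0.50 to 0.08, of Actg2 from -0.23 to 0.02, of Smtn from -0.52 to 0.04, of the pericyte score from -0.40 to 0.01 and of the lymphoid score from -0.24 to 0.10. The cause of these shifts was not tested. No paired analysis was possible because the groups share no replicate number.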
